A study of Mus musculus with 12 samples.

Results

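This report concerns 10 genes of the actin filament machinery in RiboTag cultures of mouse dorsal root ganglion (DRG) neurons: Actb, Actg1, Cfl1, Cfl2, Dstn, Pfn1, Pfn2, Tmsb4x, Tmsb10 and Arpc2. They were taken by symbol from both deposited count tables, which list 9112 genes for the libraries labelled Cre+ and 14177 for those labelled Cre-. All 10 were found in both tables and all 10 passed the filter on low values. RiboTag mice carry a ribosomal protein gene, Rpl22, that Cre recombinase switches to an HA-tagged form, so that an HA antibody pulls down the ribosomes, and the RNA on them, of the cells that expressed Cre.

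All 12 libraries came from male mice of 3 to 6 months, homozygous for the Rpl22-HA allele. By the labels, the Cre+ mice also carried Runx3-Cre, driven by a transcription factor gene of proprioceptive neurons, and the Cre- mice carried no Cre. The Runx3 values below go against these labels, and whether the labels of the tables are exchanged cannot be told from the files. Neurons of 5 mice were pooled for each sample and grown for 24 h without further treatment. For each label there were 3 HA pull-downs and 3 inputs, the input being 10% of the lysate and so RNA of the whole culture. The labels give separate samples, and each is a pool, so the spread between samples is that between pools and not between animals.

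Actin monomers assemble into filaments that push the growth cone forward and are taken apart again behind it. Thymosin beta proteins hold monomers in reserve, profilins load them with ATP and hand them to growing ends, cofilins and destrin sever older filaments, and the Arp2/3 complex starts new branches. Several of these messages are among the RNAs known to be carried into sensory axons, Actb being the classic case. Because the proteins are needed in large amounts, the genes are expressed in nearly every cell, and none of them marks a DRG cell type.

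The families differ in how far reads can tell their members apart, which matters because only uniquely mapped reads were counted. Actb (chr5:142903115-142907976, minus strand, GRCm38) and Actg1 (chr11:120345687-120348495, minus strand) encode the beta and gamma cytoplasmic actins and were identical at 88.6% of their coding bases. The first 30 coding bases of each are shown because they hold the start of the protein, where these actins differ most, and the capitals mark bases that differ between the members of a pair.
Actb: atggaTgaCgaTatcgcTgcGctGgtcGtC
Actg1: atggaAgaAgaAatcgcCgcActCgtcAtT
Of the 50-base stretches of the Actg1 transcript, 58.1% also occur in the transcripts of other genes, against 14.2% for Actb. The count of Actg1 is therefore uncertain as a level, and the same reservation holds for Tmsb10, at 63.5%.

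Tmsb4x (chrX:167207093-167213479, minus strand) and Tmsb10 (chr6:72957347-72958748, minus strand) each encode a thymosin beta of 44 codons. Their coding sequences were identical at 69.7% of bases and shared no stretch of 50 bases, and Tmsb4x shared none with any other gene.
Tmsb4x: atgTcTgacaaAccCgaTatggCTgaGatc
Tmsb10: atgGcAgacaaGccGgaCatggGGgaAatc
Pfn1 (chr11:70651844-70656799, minus strand) and Pfn2 (chr3:57841895-57847757, minus strand), the widely expressed and the more neuronal profilin, were the least alike of these pairs, at 61.7%.
Pfn1: atggccggGtggAaCGCctacAtCgaCaGc
Pfn2: atggccggTtggCaGAGctacGtGgaTaAc
Cfl1 (chr19:5490455-5494031, plus strand) and Cfl2 (chr12:54858815-54862877, minus strand) encode cofilin-1 and cofilin-2, the latter best known from muscle, and were identical at 71.5%.
Cfl1: atggcCtctggTgtGGcTgtCTCtgatgGT
Cfl2: atggcAtctggAgtTAcAgtGAAtgatgAA
Dstn (chr2:143915331-143943324, plus strand) encodes destrin, a relative of the cofilins, and Arpc2 (chr1:74236490-74268209, plus strand) encodes a subunit of the Arp2/3 complex. The Cfl1 exons overlap those of Snx32 on the opposite strand over 9.63% of their bases, and the counting was not stated to use strand.

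Before the values, several features of the libraries bear on every comparison. Runx3 itself had 22.8, 2.07 and 11.1 normalized counts (counts scaled to 1000000 reads after correction for composition) in the pull-downs labelled Cre+ and 20.8, 36.0 and 51.4 in those labelled Cre-, so that the driver gene was enriched over input under the label without Cre (log2 fold change 3.52, FDR = 0.000466 by edgeR's quasi-likelihood test with Benjamini-Hochberg adjustment, as for every FDR here) and did not pass under the label with it (1.55, FDR = 0.302). Of the proprioceptor markers, 7 of 8 were called enriched under the Cre- label (6.06% of all genes) and 1 of 7 under the Cre+ label (5.17%). The groups are therefore named throughout by their labels only, and every direction between them is one between labels. One pull-down labelled Cre+, replicate 1, stood apart from the other 2, with Pearson's r of 0.745 and 0.706 across genes on the log2 scale, against 0.845 between those 2, and with 3.97% of its counts on the nuclear RNA Malat1, against 0.494% and 0.4998% in the others. Among the pull-downs labelled Cre-, replicate 1 was also the high one for Malat1, with 0.483% against 0.116% and 0.110%. Of the inputs labelled Cre+, replicate 1 went less closely with the other 2 (r = 0.920 and 0.921) than those did with each other (0.978). Depth was 8886308 to 18633365 counts a library. Fewer cells of a type and less RNA per cell cannot be told apart in such bulk samples.

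The 10 genes together took a smaller share of the pull-down than of the input under both labels. They held 0.362% to 0.547% of the counts in the inputs labelled Cre+ and 0.125% to 0.153% in the pull-downs. Input replicate 1 alone set the top of that range, the other inputs being at 0.362% and 0.381%. The shares for the Cre- label were 0.342% to 0.369% and 0.209% to 0.248%. No pull-down reached the share of any input. Shares depend on every other gene in a library, and are given without a test.

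**Figure D1:**
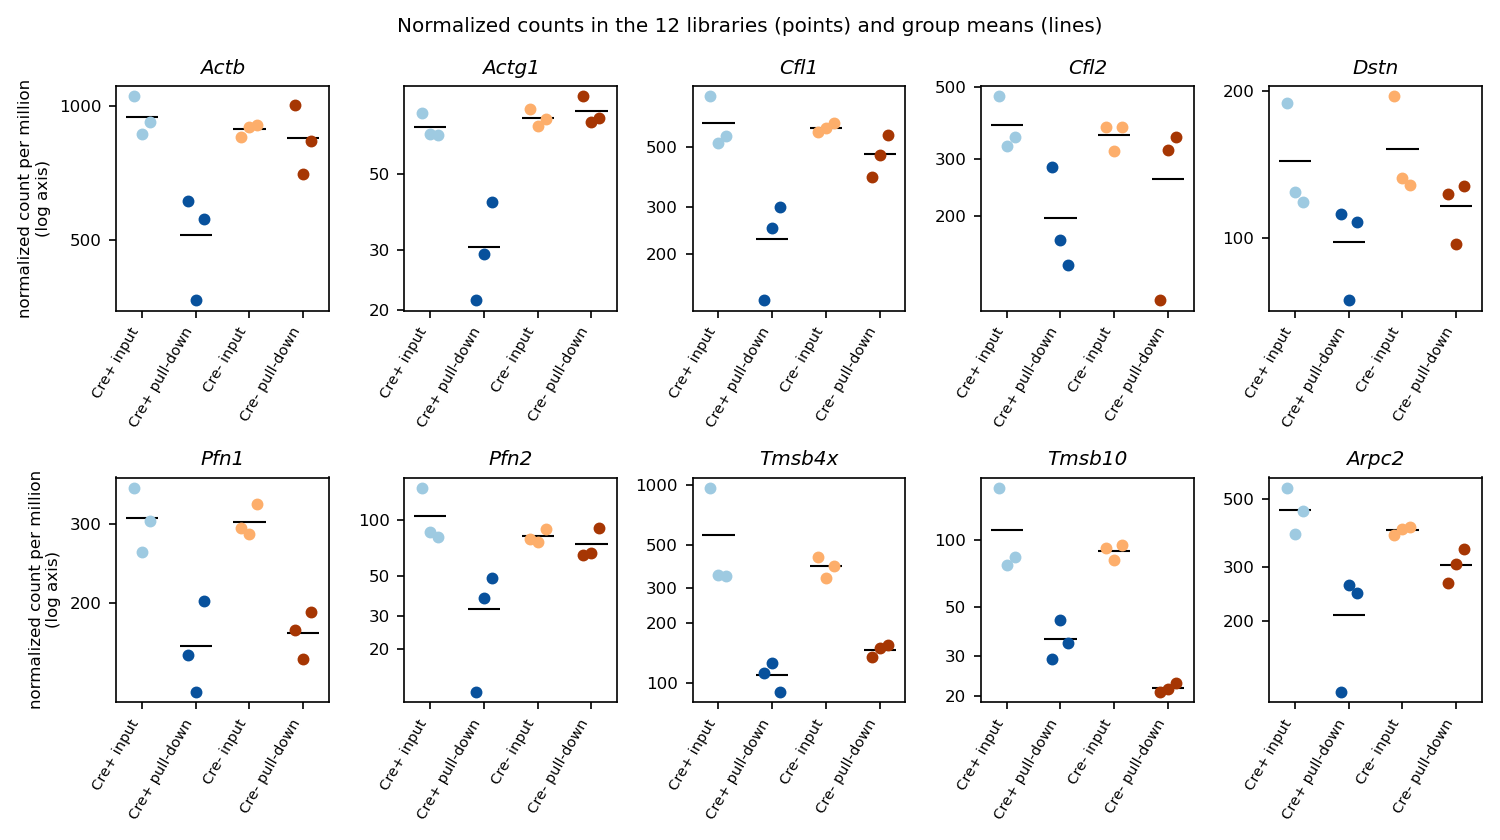
Normalized counts per 1000000 reads (log axis, a separate scale for each gene) of the 10 genes in the 12 libraries, with points for libraries and lines for the means of 3. In the libraries labelled Cre+ every pull-down point lies below every input point in all 10 panels. Under the Cre- label 6 genes show the same separation (Cfl1, Pfn1, Tmsb4x, Tmsb10, Dstn and Arpc2).

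The thymosins were lower in the pull-downs under both labels. Tmsb4x, the major monomer-sequestering protein of many cells, had 968, 351 and 348 normalized counts in the inputs labelled Cre+ and 113, 126 and 89.9 in the pull-downs. Input replicate 1 was far above the other 2, and all 3 pull-downs lay below all inputs. This was a log2 fold change of -2.34, or 5.07-fold lower, with a standard error of 0.43 (FDR = 0.0408). In the libraries labelled Cre- it had 433, 341 and 388 in the inputs and 136, 149.9 and 155 in the pull-downs, groups far apart for their narrow spread. There Tmsb4x stood at -1.40 on the log2 scale, with a standard error of 0.16 (FDR = 0.000272).

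Tmsb10, the thymosin more typical of immature neurons, had 172, 77.5 and 84.0 in the inputs labelled Cre+ and 29.3, 43.9 and 34.5 in the pull-downs, with input replicate 1 again the high one. Pull-down against input it stood at -1.63 on the log2 scale, with a standard error of 0.44 (FDR = 0.0836). The inputs labelled Cre- had 91.9, 80.9 and 94.7 and the pull-downs 20.8, 21.5 and 22.9. This was the lowest fold change of the 10 genes under that label, at -2.04 (standard error 0.19, FDR = 0.000118). The thymosins were thus called depleted under both labels, where a call means an FDR below 0.1 and at least a 2-fold change.

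Of the profilins, Pfn1 had 362, 261 and 306 normalized counts in the inputs labelled Cre+ and 153, 127 and 202 in the pull-downs. Under the Cre- label Pfn1 had 294, 285 and 332 in the inputs and 174, 150.3 and 191 in the pull-downs. The groups did not overlap under either label, and the log2 fold changes were close, at -0.94 (standard error 0.29, FDR = 0.105) and -0.82 (standard error 0.16, FDR = 0.00558). The second passed the FDR limit but not the 2-fold limit, so Pfn1 was called under neither.

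Pfn2 had 150.2, 86.2 and 81.3 in the inputs labelled Cre+ and 11.7, 37.9 and 48.7 in the pull-downs. The pull-down of replicate 1 was the low one, with 105 reads. The log2 fold change was -1.69 with a wide standard error of 0.55 (FDR = 0.118). Under the Cre- label the inputs, at 79.4, 76.6 and 89.1, overlapped the pull-downs, at 64.4, 66.3 and 91.1, and the log2 fold change was -0.14 (FDR = 0.659).

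Among the severing proteins, Cfl1 had 777, 517 and 554 normalized counts in the inputs labelled Cre+ and 134, 250.4 and 299 in the pull-downs. It was called depleted, at -1.44 on the log2 scale with a standard error of 0.34 (FDR = 0.0646). Under the Cre- label Cfl1 had 570.0, 593 and 616 in the inputs and 389, 469 and 555 in the pull-downs. These groups did not overlap, but the fold change was small, at -0.33 (standard error 0.16, FDR = 0.178).

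Cfl2 had 467, 328 and 349 in the inputs labelled Cre+ and 282, 168 and 141 in the pull-downs (log2 fold change -0.95, FDR = 0.129). Under the Cre- label it had 375, 317 and 376 in the inputs and 109.6, 318 and 349 in the pull-downs. One pull-down, replicate 1, was far below the rest, and the fold change of -0.46 (FDR = 0.377) rested on it, being -0.08 without that library. Dstn had the smallest fold change of the 10 under the Cre+ label, with 189, 125 and 118 in the inputs and 112, 74.7 and 108 in the pull-downs (log2 fold change -0.55, FDR = 0.345). With the Cre- label Dstn had 195, 133 and 128 in the inputs and 123, 97.4 and 128 in the pull-downs, the last just below the lowest input (-0.39, FDR = 0.219).

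Of the actins, Actb had 1053, 865 and 921 normalized counts in the inputs labelled Cre+ and 614, 366 and 559 in the pull-downs. The groups did not overlap, and Actb stood at -0.88 on the log2 scale with a standard error of 0.27 (FDR = 0.105). Under the Cre- label the inputs had 855, 898 and 910 and the pull-downs 1006, 706 and 837, which lay on both sides of the inputs (log2 fold change -0.06, FDR = 0.818).

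Actg1, counted far less than Actb in every library, had 74.99, 65.4 and 65.0 in the inputs labelled Cre+ and 21.3, 29.1 and 41.4 in the pull-downs. The log2 fold change was -1.16 with a standard error of 0.44 (FDR = 0.156). Under the Cre- label the inputs, at 77.4, 68.8 and 72.2, and the pull-downs, at 84.2, 71.0 and 72.8, overlapped (0.06, FDR = 0.841).

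Arpc2, the branching subunit, had 544, 385 and 455 normalized counts in the inputs labelled Cre+ and 117, 261 and 246 in the pull-downs. Its log2 fold change of -1.15 (standard error 0.34) was called, but only just, at FDR = 0.0991. The inputs labelled Cre- had 382, 398 and 406 and those pull-downs 265, 306 and 342, which did not overlap, with a fold change of -0.38 (standard error 0.15, FDR = 0.110).

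**Figure D2:**
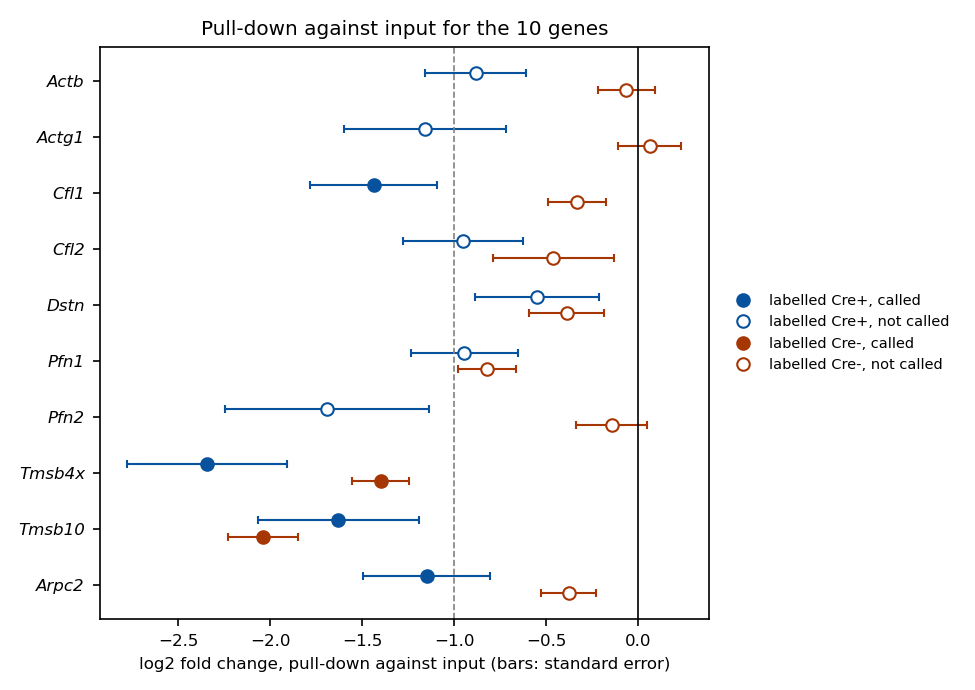
Log2 fold change of pull-down against input for each gene (points) with its standard error (bars), in the libraries labelled Cre+ (blue) and Cre- (brown). Filled points were called at an FDR below 0.1 and a 2-fold change, and the dashed line marks a 2-fold decrease. Tmsb4x and Tmsb10 were called under both labels, and Cfl1 and Arpc2 under the Cre+ label, the difference between labels being called for neither.

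With the Cre+ label, 4 members (Cfl1, Tmsb4x, Tmsb10 and Arpc2) were thus called depleted, where 2.49% of the 8947 genes tested were, and none was called enriched (background 5.17%). All 10 had every pull-down below every input, against 17.9% of all genes. The median log2 fold change was -1.15 for the 10 and 0.08 for all genes. The number of members called depended on the processing. It was 9 with library size alone (7.97% of all genes), 6 with DESeq2 (6.35%) or upper-quartile scaling (3.03%) and 1 at an FDR below 0.05 (0.279%). The calls were also sensitive to single libraries. Leaving out any 1 of the 3 inputs left no gene called in the whole table, members included, although all 10 fold changes stayed negative. Without input replicate 1, the high one, the log2 fold change of Tmsb4x was -1.67 (FDR = 0.175), of Tmsb10 -1.17 (FDR = 0.354), of Cfl1 -1.23 (FDR = 0.288) and of Arpc2 -1.01 (FDR = 0.346). Without input replicate 2 or 3 the FDR of these 4 genes ranged from 0.106 to 0.250. Without pull-down replicate 1, the library that stood apart, 5 members were called depleted (Cfl1, Cfl2, Pfn2, Tmsb4x and Tmsb10), as were 6.31% of all genes, and Arpc2 was not (-0.83, FDR = 0.0685). Without pull-down replicate 2, Arpc2 was lost (FDR = 0.102), where 4.65% of all genes were called depleted, and without replicate 3, Tmsb10 (FDR = 0.117) and Arpc2 (FDR = 0.121) were lost and Pfn1 was called (FDR = 0.0979), where 2.22% were.

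In the libraries labelled Cre-, 2 of the 10, the thymosins, were called depleted, where 5.93% of the 11526 genes tested were, and none was called enriched (background 6.06%). With the FDR limit alone Pfn1 joined them, against 11.1% of all genes. The pull-downs lay below the inputs without overlap for 6 genes (Cfl1, Pfn1, Tmsb4x, Tmsb10, Dstn and Arpc2), against 18.6% of all genes, and 9 of the 10 fold changes were negative. The median log2 fold change was -0.38 for the 10 and -0.04 for all genes. Both thymosin calls held with each of the 6 libraries left out, at FDRs up to 0.00317.

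The question whether the genes differed from input more under one label than under the other was tested directly. In the fit of all 12 libraries, 9 of the 10 genes had a more negative enrichment with the Cre+ label, from -1.51 for Pfn2 to -0.09 for Pfn1 on the log2 scale, and Tmsb10 alone had the opposite sign, at 0.44. None passed (edgeR quasi-likelihood, FDR 0.148 to 0.896), where 4.22% of the 9006 genes tested did. By edgeR at an unadjusted p under 0.05 there were 4 of the 10 (Actb, Actg1, Cfl1 and Pfn2), against 19.5% of all genes. DESeq2 called 1, Actg1 (FDR = 0.0411), and 11.6% of all genes. Without pull-down replicate 3 labelled Cre+ the test called Actg1, Cfl1 and Pfn2 (FDR = 0.0417, 0.0681 and 0.0820) and 10.8% of all genes, and without replicate 2 it called Actg1 (FDR = 0.0999) and 15.8% of all genes. Without replicate 1, the library that stood apart, it called none of the 10 and 13.8% of all genes. Actb (-0.93, FDR = 0.0579), Actg1 (-0.97, FDR = 0.0853) and Cfl1 (-0.79, FDR = 0.0999) then passed the FDR limit but not the 2-fold limit.

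Set against each other, with all 12 libraries scaled together, the pull-downs differed in Actg1, which was lower under the Cre+ label (log2 difference -1.20, standard error 0.29, FDR = 0.0194), 1 of the 10 where 7.17% of all genes were called lower and 10.9% higher. Without pull-down replicate 1 labelled Cre+ the difference was -0.99 and missed the 2-fold limit. Actb (-0.62, FDR = 0.0617) and Cfl1 (-0.94, FDR = 0.0384) passed the FDR limit alone, which 9.56% of all genes did in that direction. The pull-downs labelled Cre+ lay below the others without overlap for 4 genes (Actb, Actg1, Cfl1 and Pfn2), against 15% of all genes. Without pull-down replicate 2 or 3 labelled Cre+, or without pull-down replicate 1 labelled Cre-, Cfl1 was called as well (-1.02, -1.18 and -1.07), and without replicate 3 labelled Cre+ so was Pfn2 (-1.46, FDR = 0.0425). In these fits 12.3%, 10.4% and 5.92% of all genes were called lower. Tmsb10 pointed the other way, every pull-down labelled Cre+ being above every one labelled Cre- (0.84, FDR = 0.102), as for 13.5% of all genes.

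The inputs, the RNA of the whole cultures, showed no call among the 10 genes, nor among all 9006 tested (0%). With edgeR 20 genes, and none of the members, had an unadjusted p under 0.05, and DESeq2 called none. Both fits take a single spread per gene over all 12 libraries. That includes the pull-downs labelled Cre+, whose replicates agreed less (r of 0.706 to 0.845) than the inputs with that label (0.920 to 0.978). Differences between inputs could thus be missed, and the lack of calls does not show that the inputs were equal. Scaled together, Actb and Arpc2 were higher in every input labelled Cre+ than in any labelled Cre-, as were 3.82% of all genes. The largest difference among the members was 0.60 for Tmsb4x, and it was -0.07 without input replicate 1 labelled Cre+.

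Levels can be compared between genes only per length. Per kilobase of transcript, normalized counts in the inputs labelled Cre- were 504 ± 60.05 for Tmsb4x (SD, n = 3), 501 ± 19.2 for Cfl1 and 462 ± 15.1 for Actb. Tmsb4x and Cfl1 overlapped, while Cfl1 was above Actb in every library. The place of Cfl1 rests on the transcript length used, 1184 bases within the RefSeq gene. At the 2354 bases of its GENCODE transcript it was at 252 ± 9.68, below Actb, Pfn1 and Arpc2, and it came below Actb and Arpc2 in each of the other groups too. For Cfl1, 19.8% of the 50-base stretches occur in other genes. Pfn1 (353 ± 29.0), Arpc2 (282 ± 8.72), Tmsb10 (156 ± 12.8), Cfl2 (121 ± 11.4) and Dstn (80.1 ± 19.6) followed, each apart from its neighbour. Pfn2 (40.4 ± 3.24) and Actg1 (38.2 ± 2.29) were lowest and overlapped. In the pull-downs with the same label Actb led, at 442 ± 78.3, followed by Cfl1 at 398 ± 70.2, which overlapped it. Tmsb4x came after Arpc2 and Pfn1, at 191 ± 13.1, and Tmsb10, at 38.1 ± 1.87, overlapped Actg1 and Pfn2.

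In the inputs labelled Cre+ the means had the same order, with Tmsb4x at 724 ± 465 and Actg1 last at 35.9 ± 2.97, but most neighbours overlapped. The order at the top rested on replicate 1, where Tmsb4x was at 1261, Cfl1 at 657 and Actb at 549. In replicate 2 they were at 457, 437 and 451, and in replicate 3 at 453, 468 and 479. Gaps without overlap lay between Actb and Pfn1, between Cfl2 and Dstn and between Pfn2 and Actg1. In the pull-downs Actb again led (267 ± 67.7) and overlapped Cfl1 (192 ± 71.7), Pfn1 (187 ± 44.6) and Arpc2 (148 ± 56.5) following. Pfn2 (16.2 ± 9.44) and Actg1 (16.1 ± 5.33) were again the lowest. For Actg1 and Tmsb10 these levels leave out reads that map to more than 1 gene.

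A ratio of relatives within a library does not depend on how libraries are scaled. The count of Tmsb4x was 4.71, 4.21 and 4.10 times that of Tmsb10 in the inputs labelled Cre-, and 6.53, 6.98 and 6.78 times in the pull-downs. With the Cre+ label it was 5.64, 4.52 and 4.15 times in the inputs and 3.84, 2.87 and 2.61 times in the pull-downs. The ratio was therefore higher in every pull-down than in any input under one label (log2 difference 0.64) and lower in every one under the other (-0.63). With 3 against 3, the exact two-sided permutation test cannot go below p = 0.1, the value it gave for both, and the adjusted p over the 5 ratios of each label was 0.25.

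The Pfn1 to Pfn2 ratio was 3.70, 3.73 and 3.73 in the inputs labelled Cre- and 2.70, 2.27 and 2.10 in the pull-downs (log2 difference -0.67, exact permutation p = 0.1, adjusted 0.25). Under the Cre+ label it overlapped between fractions, with 13.2 in pull-down replicate 1 (0.91, exact p = 0.2). Cfl1 to Dstn was lower in every pull-down than in any input with the Cre+ label (-0.95, exact p = 0.1) and overlapped with the Cre- label (0.03, exact p = 0.9). Actb to Actg1 and Cfl1 to Cfl2 overlapped between fractions under both labels. In pull-down replicate 1 labelled Cre+ these ratios were 28.8 and 0.474, far from the other libraries with that label.

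**Figure D3:**
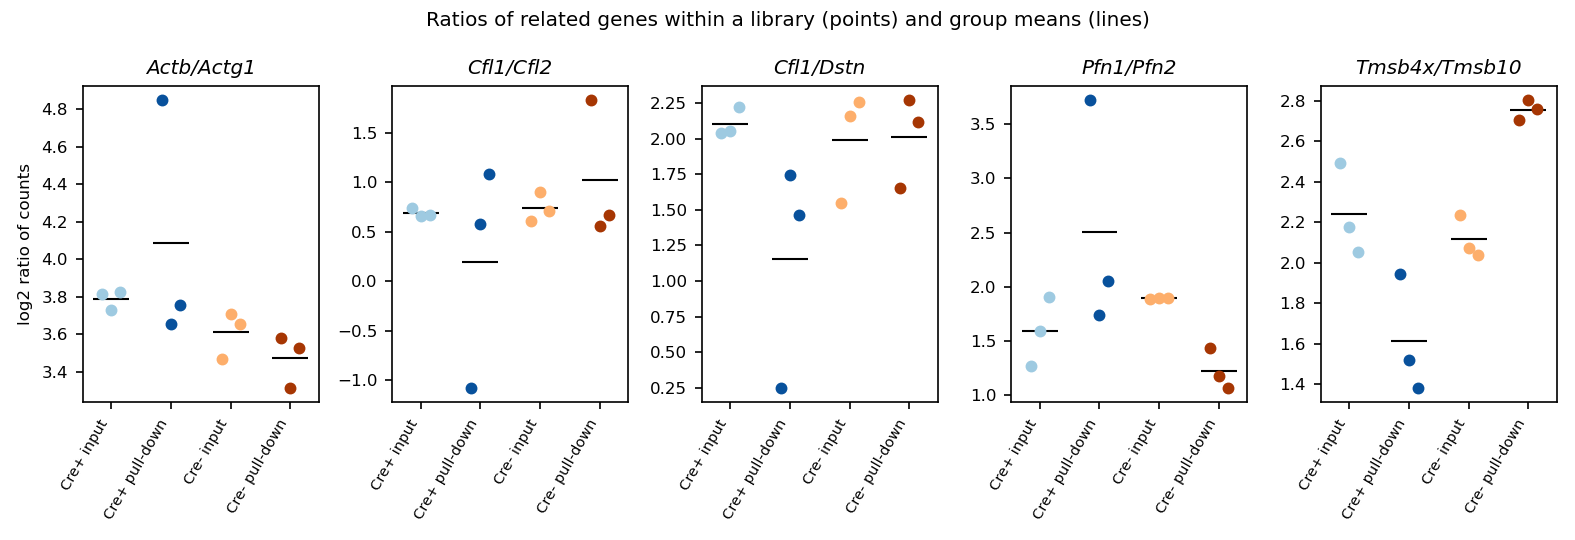
Log2 ratio of the counts of related genes within each library (points) and the mean of 3 (lines), on a separate scale for each pair. For Tmsb4x to Tmsb10 the pull-downs lie below the inputs under the Cre+ label and above them under the Cre- label.

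The 10 genes share transcripts shorter than the median, a feature the choice of genes did not use. Their transcripts measured 570 bases (Tmsb10) to 2940 bases (Cfl2). The median was 3360 bases over the tested genes of the Cre+ table that had a length (8076 of 8947). In the Cre- table it was 3022.5 bases, so that Cfl2 was of middle length. Across genes, which are not independent replicates, the log2 fold change went with the logarithm of length at Pearson's r = 0.52 with the Cre+ label and r = 0.33 with the Cre- label (10250 of 11526 genes). All genes were divided by length into 10 bins of equal size. In the bin of the shortest genes the median log2 fold change was -1.01 with the Cre+ label and -0.47 with the Cre- label, and in that of the longest it was 1.09 and 0.42. Of the shortest genes 11.2% and 14.7% were called depleted.

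Set against all genes of the same length bin, 8 of the 10 lay below the median with the Cre+ label and 3 below the lower quartile: Cfl2, Pfn2 and Tmsb4x. For the Cre- label 6 lay below the median and 2 below the lower quartile, Tmsb4x and Tmsb10. Cfl1, Arpc2, Actb, Actg1, Dstn and Pfn1 lay between the quartiles of their bin in both. These places used the members' lengths within the RefSeq gene, while the bins were built on GENCODE lengths. With GENCODE lengths for the members too, which is the like measure, 8 lay below the median under each label. Below the lower quartile there were then 4 with the Cre+ label, Cfl1 being added, and 2 with the Cre- label. The part of transcript length in the fold changes was not tested.

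**Figure D4:**
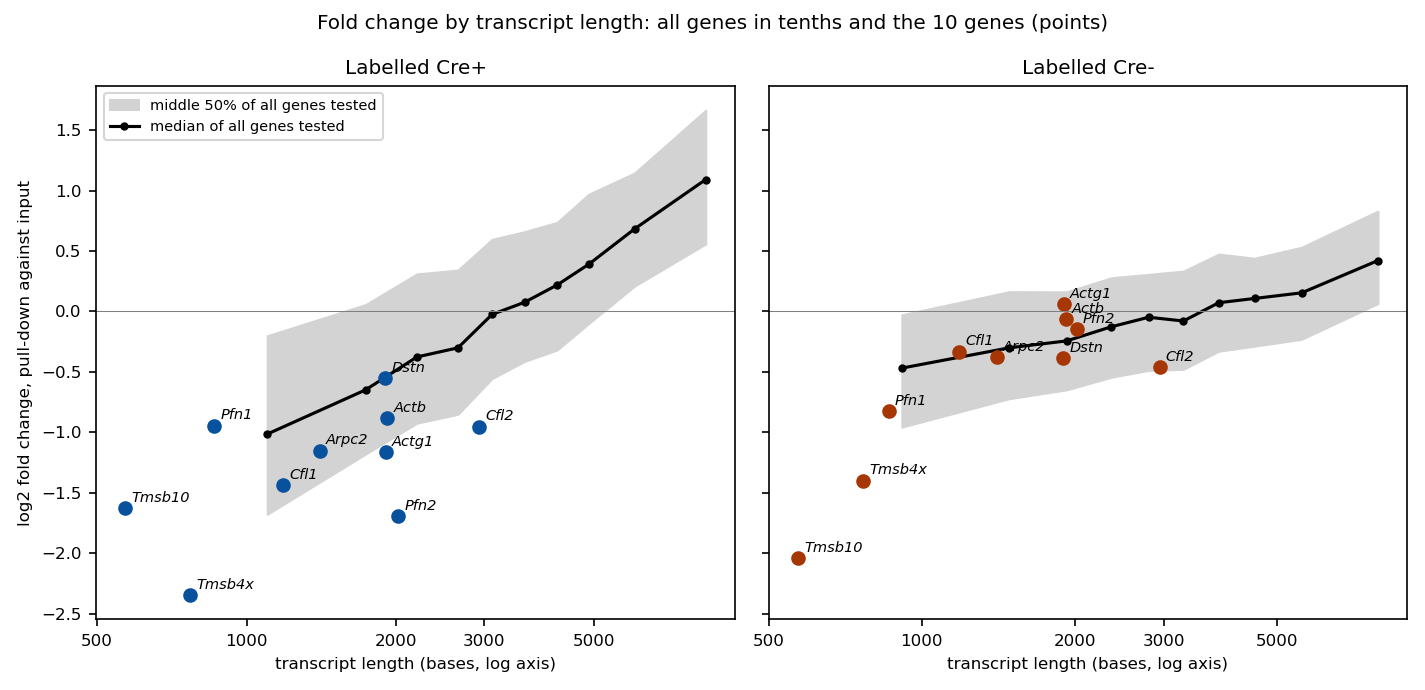
Log2 fold change of pull-down against input by transcript length (log axis) for all genes in 10 bins of length (line, median; grey, lower to upper quartile; plotted at the median length of each bin) and for the 10 genes (points). Medians climb from -1.01 to 1.09 with the Cre+ label and from -0.47 to 0.42 with the Cre- label, and Tmsb4x lies below the grey band of its bin in both. Points stand at the length within the RefSeq gene, while the bins use GENCODE lengths.

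Over the 12 libraries the normalized counts of the 10 genes went together to differing degrees, with Pearson's r of 0.27 to 0.97 over the 45 pairs and a median of 0.68. The libraries share groups, so these values describe the group differences above. The genes outside the list whose profile was most like the mean of the 10 were Myl12b (r = 0.994), S100a10 (0.976), Dynlrb1 (0.975), Rpl18 (0.973) and Skp1a (0.972).

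Promoter sequence (250 bases before to 50 after the start) was taken for 9 of the 10 genes, all but Actb, from the table of RefSeq promoters used here (GRCm38.p6). The CArG box, the motif of serum response factor, a regulator of cytoplasmic actin genes, was searched on both strands. The 9 genes had 11 promoters there, several of them for Tmsb10. For Tmsb4x and Pfn1 the start used, at 167209218 and 70654650, lies inside the gene span given above and not at its end. The box was in 1 of the 11, that of Actg1, 90 bases before the start at chr11:120348566-120348595 on the minus strand, in capitals below.
Actg1: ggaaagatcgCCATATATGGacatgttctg
Of all 32851 promoters of that length 1.63% hold a CArG box. The letters TATAAA were in none of the 11, against 13.6% of all.

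Other genes of the actin pathway were called in both directions. Of 120 genes in lists of regulators and partners, 87 were tested in the Cre+ table, with 9 called enriched (10.3%, against 5.17% of all genes) and 2 depleted (2.3%, against 2.49%). For the Cre- label 96 were tested, with 11 enriched (11.5%, against 6.06%) and 10 depleted (10.4%, against 5.93%). The list of muscle actins and minor profilins and thymosins had no gene past the filter.

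The other 9 subunits of the Arp2/3 complex all had negative fold changes under both labels, with medians of -0.91 and -0.43, against 0.08 and -0.04 for all genes. In the bin of the shortest genes the medians were -1.01 and -0.47. The subunits were not set against genes of their own length, and the part of length was not tested. With the Cre+ label none was called. Depletion was called for 3 under the Cre- label, where 5.93% of all genes were depleted: Arpc5 (-1.02, FDR = 0.00177), Arpc1b (-1.02, FDR = 0.00212) and Arpc1a (-1.15, FDR = 0.00268). Arpc5 had 501 ± 81.2 in the inputs and 247 ± 12.3 in the pull-downs (SD, n = 3).

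Of non-muscle myosin II, the motor that contracts actin filaments, 6 genes were tested. Its heavy chains were enriched with both labels, as were 5.17% and 6.06% of all genes: Myh9 (2.33 and 1.11), Myh10 (1.65 and 1.93) and Myh14 (4.04 and 1.53). Its light chains Myl12b (-1.73, FDR = 0.0399) and Myl6 (-2.51, FDR = 0.0655) were depleted with the Cre+ label, as were 2.49% of all genes, and Myl12a was not called (-2.15, FDR = 0.167). No light chain was called under the Cre- label, where Myl12b passed the FDR limit alone (-0.88, FDR = 0.00454). Calls went with length over all genes. In the bin of the longest genes 28.8% were called enriched with the Cre+ label and 17% with the Cre- label. In that of the shortest 11.2% and 14.7% were called depleted. The myosin genes were not set against genes of their own length, and the part of length was not tested.

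Filament builders and crosslinkers held calls in both directions, where 5.17% of all genes were enriched and 2.49% depleted with the Cre+ label. With the Cre- label these shares were 6.06% and 5.93%. Among the formins and Ena/VASP proteins, which elongate unbranched filaments, Fmn1 (1.30) and Fmnl3 (2.30) were enriched with the Cre+ label. Enah (1.73) and Fhod3 (2.66) were enriched and Fmnl1 (-1.77) depleted with the Cre- label. Among crosslinkers 2 genes were called enriched with the Cre+ label, of which only Flna (2.46), a filamin, is named here. Lcp1 (1.86) and Pls1 (2.15) were enriched and Marcks (-1.32) and Marcksl1 (-1.88) depleted with the Cre- label.

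Of the capping, monomer-binding and severing proteins, Cap2 was enriched (3.34, FDR = 8.71e-05) and Twf2 depleted (-1.96) with the Cre- label, and none of the 12 tested was called with the Cre+ label. Tpm2 was enriched (2.03) and Tpm4 depleted (-1.32) with the Cre- label. No cofilin kinase or phosphatase was called under either label, with 5 and 7 tested. Of all genes 5.17% were called enriched and 2.49% depleted with the Cre+ label, and 6.06% and 5.93% with the Cre- label. Lists this short can hold no call at such shares. Abi2 (1.30), of the WAVE complex that activates Arp2/3, and the kinase Rock1 (1.504) were enriched with the Cre+ label, and the kinase Pak1 (1.49) and the actin-responsive coactivator Mkl1 (1.31) with the Cre- label, where Rhoc (-1.15) and Rac3 (-1.79) were depleted.

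In the test of the difference between the labels 6 of the 87 pathway genes passed (6.9%, against 4.22% of all genes). Abi2 (1.20), Fmnl2 (1.75), Rock1 (1.88) and Mkl2 (1.66) had the higher enrichment with the Cre+ label, and Pls1 (-2.83) and Pak1 (-1.21) with the Cre- label.

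**Figure D5:**
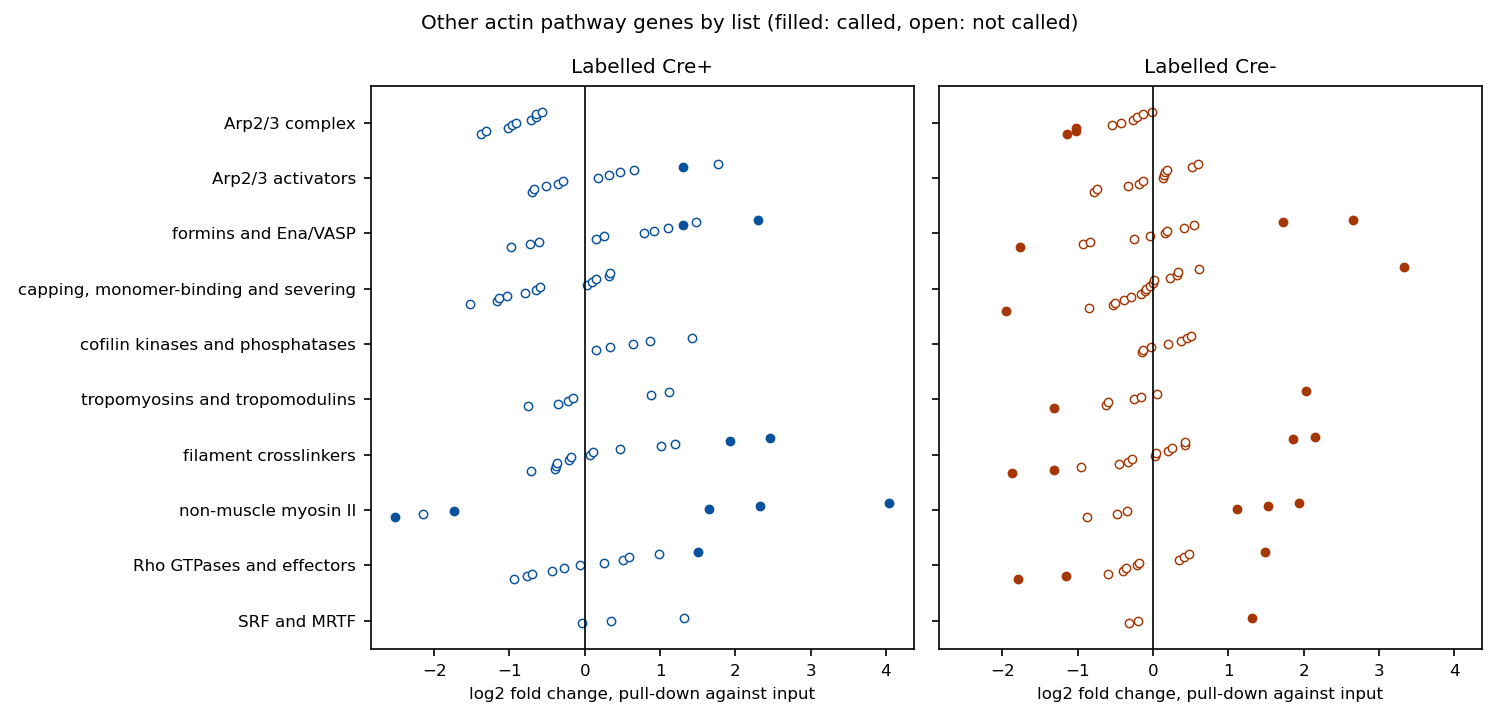
Log2 fold change of pull-down against input for other actin pathway genes, a point for each gene tested, by list (rows) and label (panels), with filled points for genes called at an FDR below 0.1 and a 2-fold change. All 9 Arp2/3 subunits lie below 0 in both panels, and the myosin II list has called points on both sides of 0 with the Cre+ label.

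The genes are expressed by most cells of a ganglion, so the summed levels of cell type markers are given beside these results. The pan-neuronal list (12 of 12 genes listed) summed to 23826 to 31165 normalized counts in the inputs labelled Cre+ and 22963 to 26037 in the pull-downs, and to 27066 to 31681 and 50969 to 59043 with the Cre- label. Gene by gene, 7 of the 12 were negative with the Cre+ label (median log2 fold change -0.51, 3 called depleted and none enriched, against 2.49% and 5.17% of all genes), and 5 of the 12 with the Cre- label (median 0.12, 3 enriched and 1 depleted, against 6.06% and 5.93%). In the test of the difference between labels 10 of the 12 were negative (median -0.80), with 1 called higher and 3 lower, where 4.22% of all genes were called. Between the pull-downs 10 of the 12 were also negative (median -0.79), with 4 called lower and 0 higher, against 7.17% and 10.9% of all genes. The proprioceptor list summed to 206 to 288 and 375 to 594 with the Cre+ label (7 of 8 listed), and to 247 to 333 and 1404 to 1720 with the Cre- label (8 of 8). Between the pull-downs 3 of the 7 tested were called lower under the Cre+ label (median -1.50), against 7.17% of all genes. Glial markers summed to 806 to 872 in the inputs and 546 to 627 in the pull-downs labelled Cre+ (6 of 12 listed), and to 804 to 922 and 878 to 1196 with the Cre- label (10 of 12, of which 1 was at 0 in some libraries). Gene by gene, 5 of the 6 glial markers tested with the Cre+ label were negative (median log2 fold change -0.45, none called). With the Cre- label 6 of 8 were (median -1.21, 2 called depleted, against 5.93% of all genes), so that the sum and the median differ in direction there.

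Endothelial markers summed to 99.2 to 118 and 129 to 793 with the Cre+ label and 91.7 to 141 and 24.9 to 186 with the Cre- label (6 of 7 listed in both). Between the pull-downs all 6 were higher under the Cre+ label (median 2.44, 4 called, against 10.9% of all genes). In the test of the difference between labels all 6 were positive too (median 2.37, 1 called, against 4.22% of all genes). Fibroblast (5 and 7 of 8 listed), macrophage (2 and 6 of 8) and smooth muscle (3 and 5 of 7) markers each summed to at most 119.5 in any library, and no listed gene of these or of the endothelial and neuronal lists was at 0. Endothelial markers were all positive with the Cre+ label (6 tested, median 1.98, 2 called enriched, against 5.17% of all genes), with sums of 793, 129 and 189 in the pull-downs, of which the first is the library that stood apart. Their median was 0.06 with the Cre- label (5 tested), where pull-down replicate 1 set the top of the range, with 186 against 24.9 and 27.6. That library was also the highest for fibroblast markers, with 93.6 against 30.01 and 27.0. Smooth muscle markers summed to 70.3 to 84.9 in the inputs and 18.5 to 55.0 in the pull-downs labelled Cre-. Both tested there were called depleted (median -1.43), against 5.93% of all genes. All 5 fibroblast markers tested with that label were negative (median -0.81, 1 called depleted, against the same 5.93%), and 2 of 5 with the Cre+ label (median 0.53, none called). Macrophage markers had medians of 0.20 with the Cre+ label (2 tested) and 0.30 with the Cre- label (4 tested), with none called, and their sums in the pull-downs labelled Cre+ were 112, 16.8 and 4.85, highest in the library that stood apart. The part of other cells in the members' fold changes was not tested.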

How the data were processed

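RNA of HA pull-downs and inputs was sequenced by the authors as 50-base paired-end reads, aligned to mm10 with STAR and counted per RefSeq gene with HTSeq, from uniquely mapped reads (CASAVA 1.8.2, per the labels). The deposited values used are raw counts per gene, with the authors' mean FPKM as a filter, above 1. The tables also hold 18 per-library columns (the authors' normalized counts and ratios to input) and the authors' own fold changes and p-values, none of which was used. The depth was 8886308 to 18633365 counts per library.

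Counts were scaled by trimmed mean of M values (TMM) and tested with edgeR 4.0.16 (glmQLFit and glmQLFTest, R 4.3.3), with Benjamini-Hochberg FDRs over all genes tested. Pull-down and input were fitted for each label from its own table, and the other comparisons in all 12 libraries. Genes were called at an FDR below 0.1 and a 2-fold change. Normalized counts are per 1000000 reads after TMM. The alternatives were DESeq2 1.42.0, edgeR's exact test, other scalings, filters and thresholds, a replicate block and each library left out. The fits were tested on simulated counts, of which no outcome is reported here.

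The members and lists were chosen with earlier results of these data known. The named genes are the 10 members, called genes of the pathway lists (up to 4 a list and direction, by FDR) and the 5 genes most like the members, except that 1 result is not reported here. Robust dispersion, scaling before the filter and a filter on the FPKM averaged over both tables, and GENCODE transcript lengths for the members, were tried after the values were seen, and the fit given is the one set out without them. Transcripts came from GENCODE M21 and RefSeq (GRCm38) and figures from matplotlib 3.10.9. Each input was part of a lysate, but which input and pull-down of the Cre+ label shared one was not established, so no block was fitted there.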

Additional observations from a re-analysis of the deposited data

How the results depend on the processing

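Of the 920 values of single members under the alternatives, 840 kept direction and side of the threshold, 33 newly passed it, 25 no longer did and 22 changed sign. Counts of all genes called moved by over 1.5 times as follows. With the Cre+ label (686 genes, 4 members) they were 1671 with DESeq2, 1279 with edgeR's exact test, 2215 in a fit of all 12 libraries and 146 at an FDR below 0.05, where 1 member was called. The members called depleted were 9 with library size alone (7.97% of all genes), 6 with DESeq2 (6.35%), upper-quartile scaling (3.03%) or all 12 libraries (10.6%), and 5 with the exact test (5.42%). With the Cre- label (1382 genes) they were 2772 with no fold limit and 439 in the fit of all 12 libraries. For the difference between labels (380 genes, 0 members) they were 1042 with DESeq2 and 91 at an FDR below 0.05, and 1 member was called with DESeq2 and 1 with library size alone (11.6% and 3.84% of all genes). Between pull-downs (1 member called), 2 were called lower with DESeq2 (8.25% of all genes) and 3 with upper-quartile scaling (9.75%) or library size alone (11.1%). The cause was not tested.

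With each library left out, the calls ranged from 0 to 1390 genes and 0 to 5 members with the Cre+ label, from 40 to 1423 genes and 0 to 3 members for the difference, and from 700 to 2514 genes (1627 with all libraries) and 0 to 3 members between pull-downs. Leave-one-out log2 values changed sign for Actb with the Cre- label (-0.19 to 0.055). They did so for Pfn1 (-0.30 to 0.048) and Dstn (-0.35 to 0.11) in the difference, and for Pfn1 (-0.19 to 0.15) and Dstn (-0.25 to 0.021) between pull-downs. Between inputs they did so for Actg1 (-0.084 to 0.035), Cfl1 (-0.072 to 0.24), Pfn1 (-0.027 to 0.21), Tmsb4x (-0.074 to 0.84), Tmsb10 (-0.069 to 0.59) and Dstn (-0.25 to 0.22). Sign also changed for Actg1 with the Cre- label at library size alone (-0.17), for Dstn between inputs with DESeq2 (0.0043), and for Pfn1 between pull-downs with upper-quartile scaling (-0.17) and library size alone (-0.23).

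Scaling moved the split of calls. With the Cre+ label 463 genes were higher and 223 lower, against 247 and 271 with upper-quartile scaling and 195 and 713 with library size alone. With the Cre- label 698 and 684 became 433 and 1249 with library size alone. For the difference 201 and 179 became 89 and 209, and 73 and 273, and between pull-downs 981 and 646 became 637 and 878, and 557 and 1003, with these scalings in turn. The median of all genes with the Cre+ label was 0.08 with TMM, -0.12 with upper-quartile scaling and -0.36 with library size alone, and with the Cre- label -0.04, -0.07 and -0.27.

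Of the settings tried after the values were seen, robust dispersion gave 422 higher and 196 lower with the Cre+ label and lost Arpc2 (FDR = 0.101). Arpc2 was also lost with upper-quartile scaling, RLE scaling, the filter of 10 counts in 3 libraries, no filter and an FDR below 0.05 (FDR 0.0991 to 0.105). Scaling before the filter and the averaged FPKM filter moved no count by over 1.5 times. Samples with the same number under the Cre- label were not fitted as pairs, since the correlations of their deviations (0.0746, 0.0335 and 0.141) were not all over 0.1. Each was still the highest for its pull-down and for its input, samples of unlike number being at -0.123 to 0.0295. Pairing is therefore not excluded. A replicate block gave 1446 genes there and called the same 2 members. Each group held 3 pools, and the lowest values rest on few reads (17 for Runx3 and 105 for Pfn2 in single pull-downs labelled Cre+).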
